A study of Mus musculus with 16 samples.

Results

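Acute-phase proteins and other inflammation-induced gene products were followed at the RNA level in mouse epididymal white fat, the visceral fat pad beside the epididymis. The 8 genes, Saa1, Saa2, Saa3, Lcn2, Hp, Orm1, Ubd and Ptx3, were found by gene name among 27150 genes of the mRNA table, and 7 of them passed the filter on low counts. Ubd and Saa3 had been chosen for their higher level on a high-fat diet (HFD) in these libraries, so their levels in HFD and normal diet mice, and all differences that use those libraries, are given as a description with no test. The mice were male, of strain C57BL/6, and were bought at 6 weeks of age and around 22 g. The groups were HFD with metformin (an antidiabetic biguanide), HFD with resveratrol (a plant polyphenol, spelled "reveratrol" in the labels), HFD without a drug, and a normal diet, with 4 libraries each. The HFD (D12492J, 60% fat) was fed for 8 weeks before treatment, and each drug was then given for 6 weeks. The labels give no doses, so metformin and resveratrol are compared here as given. Retina in the extraction text and skeletal muscle in the treatment text go against the titles, which name epididymal fat.

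In the acute-phase response, cytokines such as IL-6, IL-1 and TNF act through STAT3, C/EBP and NF-kB factors on genes of secreted plasma proteins, mainly in the liver. Part of this set is also made in fat: haptoglobin, orosomucoid, lipocalin-2 and serum amyloid A3 are known products of mouse adipocytes or of macrophages in fat, and are known to be higher in obesity. Ubd, which codes for the ubiquitin-like modifier FAT10, is an intracellular target of TNF and interferon-gamma.

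Total mRNA counts ranged from 13350585 to 20531032 per library. Levels of genes are CPM, the count relative to the library total, with that total scaled by trimmed mean of M-values (TMM) factors, and marker lists are sums of unscaled CPM. Crisp1 levels, levels of lncRNA transcripts and all levels in the library left out of the fit are also CPM of the unscaled mRNA total. Of the 16 libraries, resveratrol 4 was left out by its Crisp1 level of 12130 CPM, Crisp1 being an epididymis gene; the next highest level was 16.3 CPM. Adipocyte markers (Adipoq, Plin1 and 8 others) summed to 14710 to 28710 CPM in the other 15 libraries and to 906 CPM in resveratrol 4. For 1 HFD and 1 metformin column the code gave the group but fitted no sample title, and these libraries are named unmatched. The codes of HFD 1 to 3 share a first part that the code of HFD unmatched does not have. No label says what that part stands for. Each library has a code of its own in its title, but no label says that it is 1 mouse, so p-values measure only the spread between these libraries, which may be technical. In bulk tissue, fewer cells of a type and less RNA per cell cannot be told apart.

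The SAA genes of this set lie near each other on chromosome 7 of GRCm38, Saa3 at 46711998 to 46715700, Saa1 at 46740497 to 46742942 and Saa2 at 46751790 to 46754313. Their promoters are shown because these nearby genes had different levels in fat. The Ubd promoter is shown beside them because Ubd and Saa3 were the members chosen for their level on HFD. Each sequence holds the 250 bases before the RefSeq start of the gene (GRCm38.p6), read 5′ to 3′ on the gene's strand: chr7:46742981-46743230 on the minus strand for Saa1, chr7:46751583-46751832 on the plus strand for Saa2, chr7:46715677-46715926 on the minus strand for Saa3 and chr17:37193642-37193891 on the plus strand for Ubd. Capitals mark matches to the motifs searched.
Saa1: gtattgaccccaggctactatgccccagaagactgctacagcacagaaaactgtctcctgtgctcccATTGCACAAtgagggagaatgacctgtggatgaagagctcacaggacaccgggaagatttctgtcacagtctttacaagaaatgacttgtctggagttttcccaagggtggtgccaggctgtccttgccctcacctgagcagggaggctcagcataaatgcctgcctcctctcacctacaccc
Saa2: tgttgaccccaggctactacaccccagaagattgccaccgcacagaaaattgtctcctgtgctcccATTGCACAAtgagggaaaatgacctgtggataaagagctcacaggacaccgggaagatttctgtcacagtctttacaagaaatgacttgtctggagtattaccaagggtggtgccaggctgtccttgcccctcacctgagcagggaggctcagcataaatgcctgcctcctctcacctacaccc
Saa3: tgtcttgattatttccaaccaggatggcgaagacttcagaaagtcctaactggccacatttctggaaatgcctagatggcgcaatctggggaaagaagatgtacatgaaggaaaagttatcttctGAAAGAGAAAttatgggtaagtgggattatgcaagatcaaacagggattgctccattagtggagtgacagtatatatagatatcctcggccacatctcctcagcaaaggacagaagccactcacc
Ubd: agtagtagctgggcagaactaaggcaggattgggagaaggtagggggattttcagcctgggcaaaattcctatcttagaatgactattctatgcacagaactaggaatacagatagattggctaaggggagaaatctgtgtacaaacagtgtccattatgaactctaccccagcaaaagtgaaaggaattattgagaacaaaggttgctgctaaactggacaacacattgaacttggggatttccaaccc
The windows of Saa1 and Saa2 were identical at 238 of 251 aligned positions (94.8%), and that of Saa3 was 52.2% identical to Saa1 and 52.4% to Saa2. Both strands were searched for a C/EBP motif (TTNNGNAAT), an NF-kB motif (GGGA, any 4 bases, then CC), a STAT motif (TTCNNNGAA) and an interferon-type motif (GAAA, any 2 bases, then GAAA). These motifs matched 10.2%, 17.6%, 7.02% and 2.98% of all 32851 RefSeq mouse promoter windows of this length. The C/EBP letters lay 183 to 175 bases before the start in Saa1 and 184 to 176 bases before it in Saa2, in each case read on the opposite strand. The interferon-type letters lay 125 to 116 bases before the start in Saa3. None of the 4 motifs matched in the windows of Ubd, Lcn2 or Ptx3, which says only that these letters were not there. The stretch ggggatttcc near the end of the Ubd window differs from the NF-kB letters at the 4th base alone. Variants of the motifs were not searched.

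Saa3, the serum amyloid A that mouse fat and macrophages make outside the liver, was 17.2-fold higher in mean CPM on HFD than on a normal diet. It was at 25.9, 25.0, 58.8 and 3.98 CPM in HFD 1, 2, 3 and unmatched, against 0.539, 0.456, 4.08 and 1.53 CPM in normal diet 1 to 4. The groups overlapped, since HFD unmatched lay just under normal diet 3. With metformin, Saa3 was at 3.51, 0.646, 2.38 and 2.19 CPM in libraries 1, 2, 4 and unmatched, and with resveratrol at 2.45, 1.65 and 0.638 CPM in libraries 1 to 3, against 3.98 to 58.8 CPM in HFD. All 7 drug libraries lay below all 4 HFD libraries and within or next to the normal diet range; 8.74% of all genes had all metformin libraries below all HFD libraries, and 12.4% all resveratrol libraries, but Saa3 was chosen with the HFD libraries. The log2 difference was 4.09 (SE 0.89) for HFD against normal diet, -3.70 (SE 0.87) for metformin against HFD and -4.16 (SE 1.01) for resveratrol against HFD. One spliced transcript held 86.2% of the Saa3 counts, 87.2% in HFD and 81.4% in normal diet libraries.

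Macrophage markers (Adgre1, Cd68, Itgax, Trem2 and 8 others) moved with Saa3 between the HFD libraries. They summed to 3417, 3988 and 4052 CPM in HFD 1 to 3 and to 1100 CPM in HFD unmatched, against 804 to 1513 CPM on a normal diet. The sums were 773 to 1073 CPM with metformin and 782 to 983 CPM with resveratrol, against 1100 to 4052 CPM in HFD, and no marker of the list was at 0 in any library. Without HFD unmatched, the Saa3 difference between HFD and normal diet was 4.45 (SE 0.80), and that of Ubd 6.14 (SE 0.44). The part of macrophage transcripts in these differences was not tested.

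**Figure D1:**
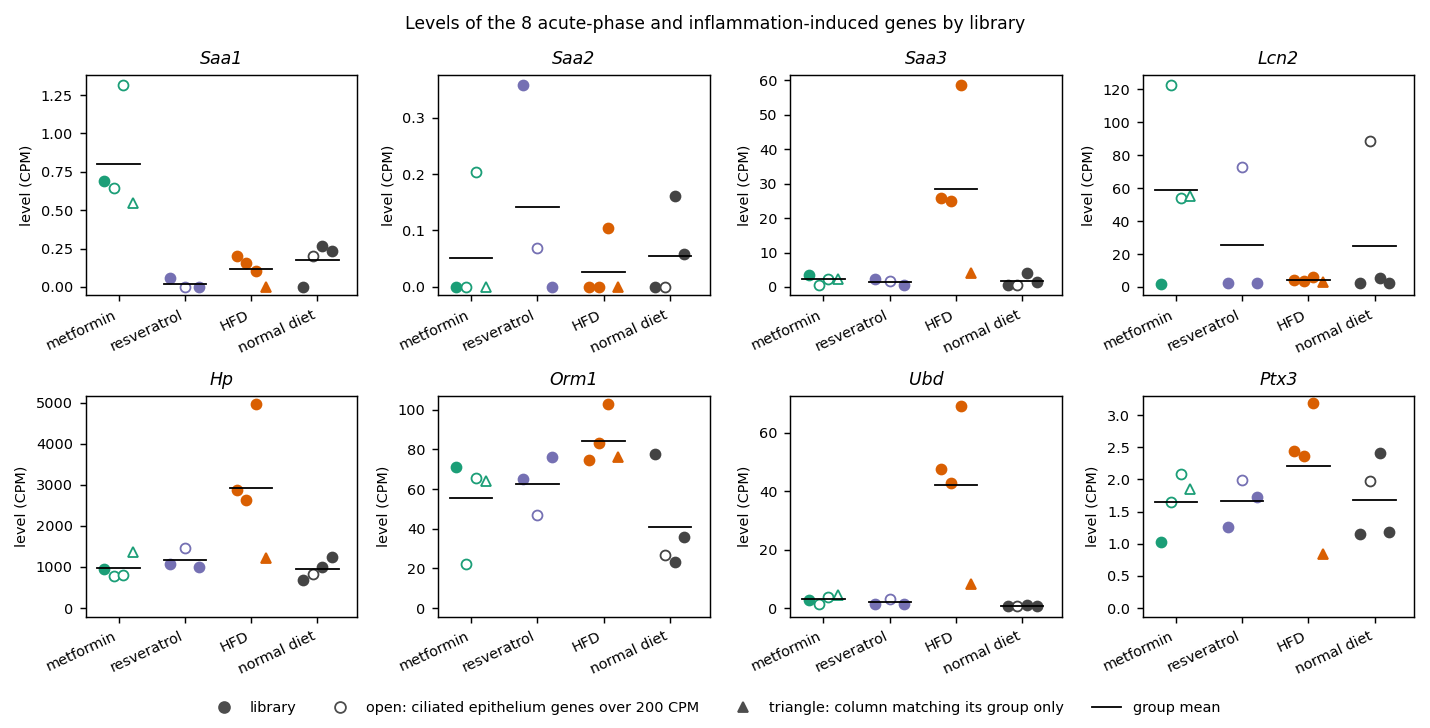
CPM (vertical axes, linear, TMM-scaled) of the 8 genes in each of 15 libraries, by group on the horizontal axis, with the group mean as a line. Open symbols are libraries with over 200 CPM of ciliated epithelium genes and triangles are the columns that match their group only. Ubd, Saa3 and Hp are high in HFD 1 to 3, while Lcn2 is at 54.1 CPM or more in the open symbols alone.

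Saa1 and Saa2, the serum amyloids that the liver secretes in infection, were near the limit of detection in fat. Saa2 had 17 counts in all 15 libraries, 4 with metformin, 7 with resveratrol, 2 in HFD and 4 on a normal diet, and was too low to test. Saa1 had 10, 11, 26 and 10 counts in metformin 1, 2, 4 and unmatched, against at most 5 in any other library of the fit; resveratrol 4, left out of it, had 8. That made 57 counts over the metformin group, 1 with resveratrol, 9 in HFD and 13 on a normal diet. Its only transcript in the table is unspliced, spanning 2446 bases, so that these counts cannot be told apart from intronic or genomic reads. Saa1 passed the filter on low counts only through the metformin group and had to differ there, so its log2 difference of 2.70 (SE 0.81, edgeR adjusted p = 0.0414) against HFD supports nothing further; 8.29% of all genes had every metformin library above every HFD library. Its call was lost in 6 of the 12 fits with 1 library left out in which it could be tested, for example without HFD 3 (adjusted p = 0.116).

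Transcripts typical of liver were present as well, in libraries of every group. A hepatocyte list without Cyp2e1, which fat also expresses (Alb, Apoa1, Ttr and 8 others), summed to 348, 477, 1779 and 427 CPM in metformin 1, 2, 4 and unmatched and to 40.2, 215 and 75.7 CPM in resveratrol 1 to 3. The sums were 16.3 to 209 CPM in HFD and 103 to 751 CPM on a normal diet, and none of the 11 genes was at 0 in any library. Metformin 4 had both the highest Saa1 level, 1.32 CPM, and the highest sum, but the normal diet sums overlapped those of metformin while Saa1 was at 0.268 CPM or less on a normal diet. With Cyp2e1 in the list the sums were highest on a normal diet, 2876 to 4083 CPM, against 1327 to 2921 CPM with metformin. The part of liver transcripts in the Saa1 counts was not tested.

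Hp, coding for haptoglobin, which binds free haemoglobin, was the most abundant member and was higher on HFD. Per transcript length, its mean level in HFD was 4811 TPM (counts scaled by transcript length), against 231 TPM for Orm1, 109 TPM for Saa3, 95.6 TPM for Ubd, 9.49 TPM for Lcn2 and 2.54 TPM for Ptx3. Hp was at 2870, 2638, 4959 and 1218 CPM in HFD 1, 2, 3 and unmatched, against 692, 831, 1004 and 1238 CPM in normal diet 1 to 4. HFD 1 to 3 lay more than 2-fold above every normal diet library, while HFD unmatched lay among them. The log2 difference was 1.63 (SE 0.35, edgeR adjusted p = 0.00621), and it was the 1 member called among the 5 tested in this comparison, beside 23.1% of all 17535 genes. It kept its call in all 15 fits with 1 library left out (adjusted p 0.000595 to 0.0202), but not with resveratrol 4 added to the fit (adjusted p = 0.128).

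With metformin, Hp was at 953, 777, 814 and 1370 CPM in libraries 1, 2, 4 and unmatched, and with resveratrol at 1075, 1467 and 996 CPM in libraries 1 to 3, against 1218 to 4959 CPM in HFD. Each drug group overlapped HFD through HFD unmatched alone. Hp fell by 1.58 on the log2 scale with metformin against HFD (SE 0.35, edgeR adjusted p = 0.0172). With resveratrol the difference was -1.31 (SE 0.38, adjusted p = 0.0703), which did not pass the test. Of 4 members tested, with Saa1 set aside for the reason given, metformin against HFD called 1, Hp, beside 13.9% of all genes. Resveratrol against HFD called 0 of 5 with edgeR, beside 4.17% of all genes. At an unadjusted edgeR p under 0.05 there was 1 (Hp), beside 3931 of all 17535 genes. DESeq2 called 1 (Hp, adjusted p = 0.00623), beside 2141 genes. The metformin call was lost in 1 of the 15 fits with 1 library left out, that without HFD 3 (-1.19, SE 0.30, adjusted p = 0.0558). It was also lost, with differences of -1.56 to -1.72, when only the 2 groups were fitted (adjusted p = 0.0539), with all 16 libraries (adjusted p = 0.153) and without the libraries over 500 or 200 CPM of ciliated epithelium genes (adjusted p = 0.0735 and 0.291). Without HFD unmatched its adjusted p was 0.00133, and resveratrol then passed as well (-1.55, SE 0.31, adjusted p = 0.00721). As for Saa3, the macrophage sum was highest in HFD 1 to 3, where Hp was highest. One transcript held 92.8% of the Hp counts, with shares of 92.8% to 92.9% in the 4 groups.

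Orm1, coding for the plasma carrier alpha-1-acid glycoprotein (orosomucoid), was at 74.7, 83.2, 103 and 76.3 CPM in HFD 1, 2, 3 and unmatched, against 77.5, 26.8, 23.0 and 35.9 CPM in normal diet 1 to 4. Unlike Saa3 and Hp, it was no lower in HFD unmatched than in HFD 1. Normal diet 1 lay within the HFD range and the other 3 lay below it. The log2 difference of 1.05 (SE 0.40, edgeR adjusted p = 0.0722) did not pass the test, but did without normal diet 1 (1.55, SE 0.34, adjusted p = 0.0111) and with DESeq2 (adjusted p = 0.0298). Orm1 was at 71.1, 22.0, 65.6 and 63.9 CPM in metformin 1, 2, 4 and unmatched, and at 65.1, 46.8 and 76.0 CPM in resveratrol 1 to 3, against 74.7 to 103 CPM in HFD. The metformin libraries all lay below the HFD libraries, as was the case for 8.74% of all genes, yet the log2 difference was -0.60 (SE 0.39, adjusted p = 0.297). That of resveratrol against HFD was -0.43 (SE 0.42, adjusted p = 0.585).

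Lcn2, coding for the siderophore-binding lipocalin-2, was low in 10 libraries and high in 5, and the split crossed the groups. It was at 1.86, 123, 54.1 and 55.6 CPM in metformin 1, 2, 4 and unmatched and at 2.27, 72.7 and 2.17 CPM in resveratrol 1 to 3. It was at 4.21, 3.74, 6.01 and 2.72 CPM in HFD 1, 2, 3 and unmatched, against 2.46, 88.8, 5.31 and 2.17 CPM in normal diet 1 to 4. Levels thus lay either at 6.01 CPM or below or at 54.1 CPM or above. The log2 difference was -2.57 (SE 1.46, edgeR adjusted p = 0.214) for HFD against normal diet, 3.81 (SE 1.52, adjusted p = 0.0956) for metformin against HFD and 2.62 (SE 1.52, adjusted p = 0.327) for resveratrol against HFD. None of them passed the test, whereas DESeq2 called metformin against HFD (adjusted p = 0.0195), as did edgeR without normal diet 2 (adjusted p = 0.0472).

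The 5 libraries high in Lcn2 were the 5 high in genes of motile cilia. A list of 14 ciliated epithelium genes (Foxj1, Dnah5, Hydin and others) summed to 1151, 450 and 684 CPM in metformin 2, 4 and unmatched, 575 CPM in resveratrol 2 and 918 CPM in normal diet 2. In the other 10 libraries it summed to 37.3 to 109 CPM, and Foxj1, Dnah5, Dnah11, Rsph1 and Rsph4a were among the markers at 0 in 1 or more of them. Without the 5 libraries, Lcn2 was slightly higher on HFD than on a normal diet (0.32, SE 0.37, adjusted p = 0.548). It was then lower with metformin than in HFD (-1.16, SE 0.60, adjusted p = 0.351, 1 metformin library) and lower with resveratrol than in HFD (-0.90, SE 0.44, adjusted p = 0.235). This limit of 200 CPM was chosen after the data were seen. The part of ciliated epithelium in the Lcn2 level was not tested. Neutrophils are a classical source of Lcn2, and 10 of 12 listed neutrophil markers were measured. They summed to 6.36 to 11.8 CPM with metformin, 5.66 to 8.96 CPM with resveratrol, 9.46 to 26.1 CPM in HFD and 5.37 to 13.1 CPM on a normal diet. S100a8 reached 18.8 CPM in HFD, and S100a8, Csf3r and Elane were at 0 in no library, while Camp was at 0 in 13 of the 15 and Mpo in 10. The part of neutrophils in the Lcn2 level was not tested.

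**Figure D2:**
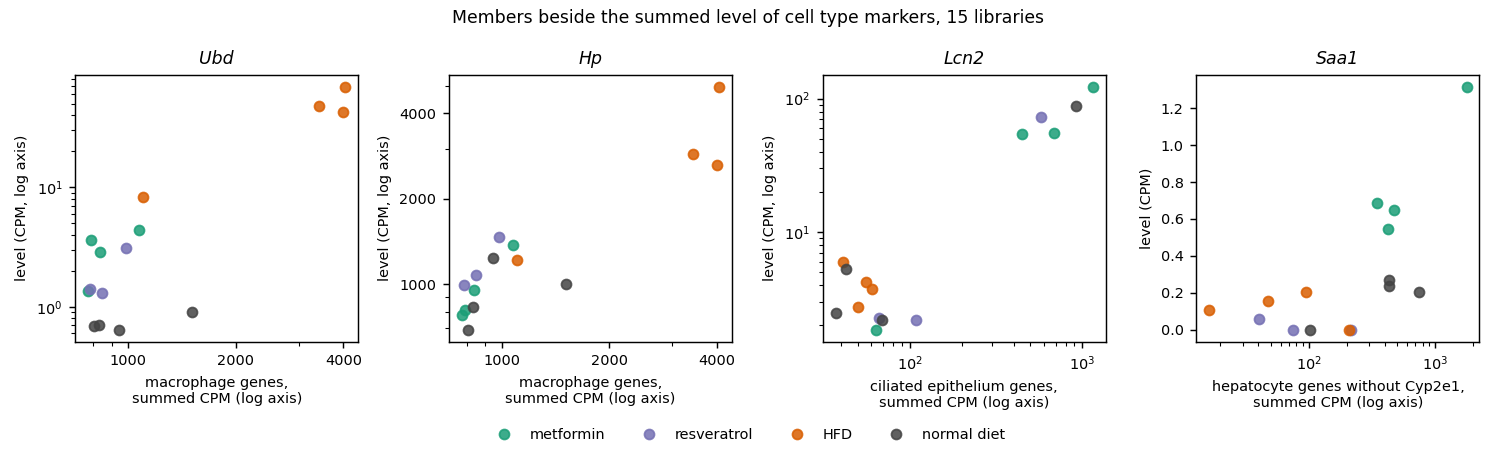
Level of a member (vertical axes, CPM, log scale except for Saa1) against the summed CPM of a marker list (horizontal axes, log scale) in 15 libraries, coloured by group. Ubd and Hp are highest in the 3 HFD libraries with macrophage sums of 3417 to 4052 CPM, Lcn2 is high in the 5 libraries with ciliated epithelium sums of 450 CPM or more, and Saa1 is highest in the metformin libraries, whose hepatocyte sums of 348 to 1779 CPM overlap the 103 to 751 CPM of the normal diet libraries, where Saa1 is low.

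Ptx3, the long pentraxin that binds microbes and complement C1q, was low and differed little. It was at 1.03, 1.64, 2.08 and 1.86 CPM in metformin 1, 2, 4 and unmatched, and at 1.25, 2.00 and 1.72 CPM in resveratrol 1 to 3. It was at 2.44, 2.36, 3.19 and 0.845 CPM in HFD 1, 2, 3 and unmatched, against 1.15, 1.98, 2.41 and 1.17 CPM in normal diet 1 to 4. All groups overlapped, and HFD held both the highest and the lowest library. The log2 difference was 0.39 (SE 0.39, edgeR adjusted p = 0.492) for HFD against normal diet, -0.41 (SE 0.39, adjusted p = 0.485) for metformin against HFD and -0.41 (SE 0.43, adjusted p = 0.60) for resveratrol against HFD.

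Ubd had the largest difference of the 8 genes, 56.9-fold in mean CPM between HFD and normal diet. It was at 47.8, 43, 69.4 and 8.27 CPM in HFD 1, 2, 3 and unmatched, against 0.693, 0.709, 0.912 and 0.646 CPM in normal diet 1 to 4. The groups did not overlap, which held for higher levels in HFD in 14.1% of all genes; Ubd was chosen on this contrast, so nothing is read from this. With metformin it was at 2.89, 1.35, 3.65 and 4.43 CPM in libraries 1, 2, 4 and unmatched, and with resveratrol at 1.31, 3.10 and 1.40 CPM in libraries 1 to 3, against 8.27 to 69.4 CPM in HFD. All 7 drug libraries lay between the 2 diet groups, below the lowest HFD library and above the highest normal diet library. Of all genes, 3.78% lay above the normal diet range in every metformin library and 6.48% in every resveratrol library. Below every HFD library lay 8.74% of all genes in every metformin library and 12.4% in every resveratrol library. Ubd was chosen with both diet groups, so nothing is read from a place between them. The log2 difference was 5.81 (SE 0.63) for HFD against normal diet, -3.77 (SE 0.56) for metformin against HFD and -4.44 (SE 0.66) for resveratrol against HFD. Against normal diet it was 2.05 (SE 0.57) for metformin and 1.37 (SE 0.61) for resveratrol, and the resveratrol value moved to 0.87 (SE 0.68) without resveratrol 2. A long non-coding transcript assembled by the authors, MSTRG.25139.1, lies over Ubd on chromosome 17 (37193954 to 37196031, inside the Ubd span of 37193892 to 37196095). It was at 1.48, 1.29, 2.05 and 0.176 CPM in HFD 1, 2, 3 and unmatched, against 0.111 CPM or less in the normal diet libraries. Since the strand setting of the counting is not given in the sources used here, its reads and those of Ubd cannot be told apart.

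**Figure D3:**
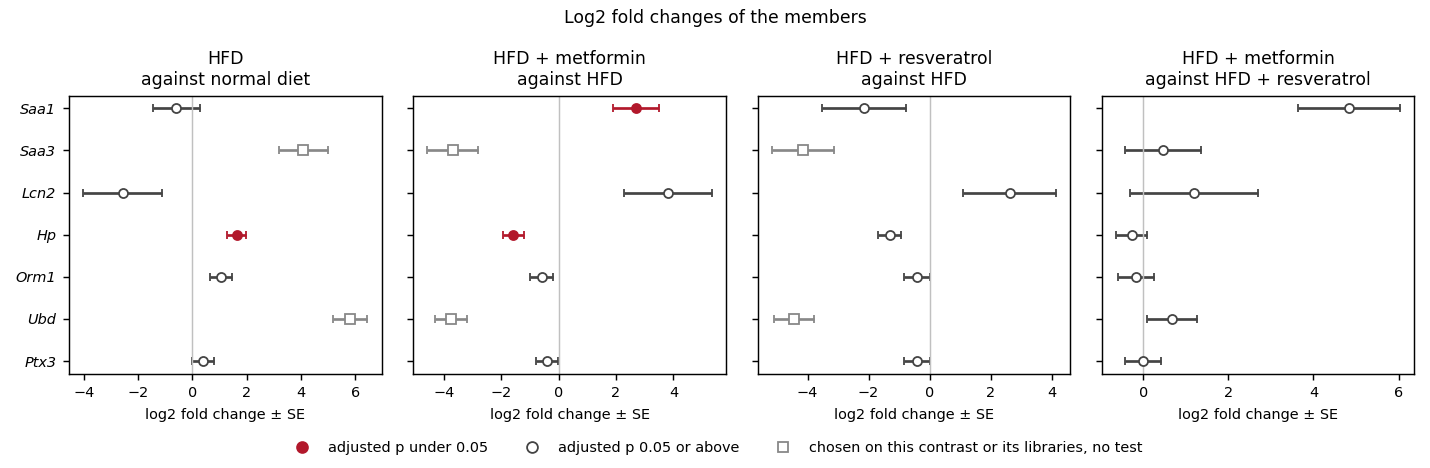
Log2 fold change (horizontal axes, points) with SE (bars) of 7 members in 4 comparisons, one panel each; Saa2 is left out for low counts. Hp is called for HFD against normal diet (1.63) and for metformin against HFD (-1.58), and Ubd and Saa3, shown as squares, have no test where the libraries that chose them enter.

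The drugs were also set against each other and against the normal diet. Of 6 members tested for metformin against resveratrol, Saa1 again set aside, edgeR called 0, beside 0.0114% of all genes. At an unadjusted edgeR p under 0.05 there were 0, beside 1228 of all 17535 genes, and DESeq2 called 0, beside 40. The log2 difference was 0.67 (SE 0.58, adjusted p = 0.794) for Ubd, 0.46 (SE 0.90, adjusted p = 0.901) for Saa3 and -0.27 (SE 0.37, adjusted p = 0.853) for Hp. These intervals are wide, and a missed threshold does not show that the drugs act alike. Saa1 was higher in all metformin than in all resveratrol libraries, as were 2.69% of all genes, but it passed the filter only through the metformin group, so nothing is read from this. Against the normal diet, edgeR called 0 of 4 tested members with metformin (Saa1 set aside), beside 1.71% of all genes, and 0 of 5 with resveratrol, beside 0.148%. DESeq2 called 0 in both, beside 1131 genes with metformin and 417 with resveratrol. An unadjusted edgeR p under 0.05 was found for 0 with metformin, beside 3282 genes, and for 1 with resveratrol, beside 1724. That 1 was Saa1, with 1 count over the resveratrol group and 13 on a normal diet. Hp differed from the normal diet by 0.06 (SE 0.34) with metformin and by 0.32 (SE 0.37) with resveratrol on the log2 scale. Comparisons that share the HFD or the normal diet libraries are not independent of each other.

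Other genes of the response were read from lists. Of 25 further acute-phase genes tested, 6 rose and 1 fell in HFD against normal diet (list median log2 difference -0.56, all genes -0.04), where 13.8% of all genes rose and 9.34% fell. Il1rn, the IL-1 receptor antagonist, averaged 8.76 ± 3.25 CPM in HFD and 1.37 ± 1.69 CPM on a normal diet (SD, n = 4 each; 2.66, SE 0.79, edgeR adjusted p = 0.0270). Lbp, the lipopolysaccharide-binding protein, averaged 376 ± 94.2 CPM in HFD and 89.9 ± 36.6 CPM on a normal diet (2.07, SE 0.29, adjusted p = 0.000659). Orm2, the low-level neighbour of Orm1, rose by 1.97 (SE 0.41, adjusted p = 0.00481). Lrg1, Serpina3n and Steap4 also rose, and Cp, coding for ceruloplasmin, fell by 1.88 (SE 0.14). Orm1 and Orm2 are close copies, so their reads could be split between them.

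With metformin against HFD, 9 of the 25 rose and 6 fell (median 1.05, all genes 0.04), where 6.09% of all genes rose and 7.84% fell. With resveratrol against HFD 1 rose and 1 fell (median -0.16, all genes 0.04), where 1.09% of all genes rose and 3.09% fell. Calls for resveratrol against HFD, here and in the lists below, were fragile. Of all genes 732 were called, but only 1 or 2 without resveratrol 1, 2 or 3 or without HFD 1, 2 or 3. With only the 2 groups fitted 1 was called. Most list genes named for resveratrol against HFD thus lost their call in each of those fits. Lrg1 averaged 165 ± 36.8 CPM with metformin, 180 ± 23.8 CPM with resveratrol and 402 ± 128 CPM in HFD (SD, n = 4, 3 and 4), and fell in both comparisons (-1.28 and -1.16, adjusted p 0.0120 and 0.0365). Orm2, Lbp, Serpina3n, C3 and Cd14 fell with metformin as well. Those that rose with metformin included the fibrinogen chains Fga (3.00, SE 0.89), Fgb (3.38, SE 1.00) and Fgg (3.28, SE 0.88), with adjusted p from 0.0323 to 0.0441, and Hpx, Saa4, Apcs, Itih4 and Serpina1a. These 8 are made mainly by the liver. The hepatocyte sums without Cyp2e1 were 348 to 1779 CPM with metformin and 16.3 to 209 CPM in HFD. Fga, Fgb and Serpina1a are themselves on the hepatocyte list, so the sums are not a separate measure from them. The part of liver transcripts was not tested. The other gene that rose with metformin was Cp, by 1.05 (SE 0.14), and it rose by 0.96 (SE 0.15) with resveratrol. Of 7 negative acute-phase genes tested, Igfals rose and Trf fell in HFD against normal diet, counts near the 13.8% and 9.34% of all genes. With metformin against HFD, Alb (2.97, SE 0.87) and Ahsg (3.01, SE 0.74), both also on the hepatocyte list, rose and Igfals fell by 1.36. With resveratrol Igfals fell by 1.80.

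**Figure D4:**
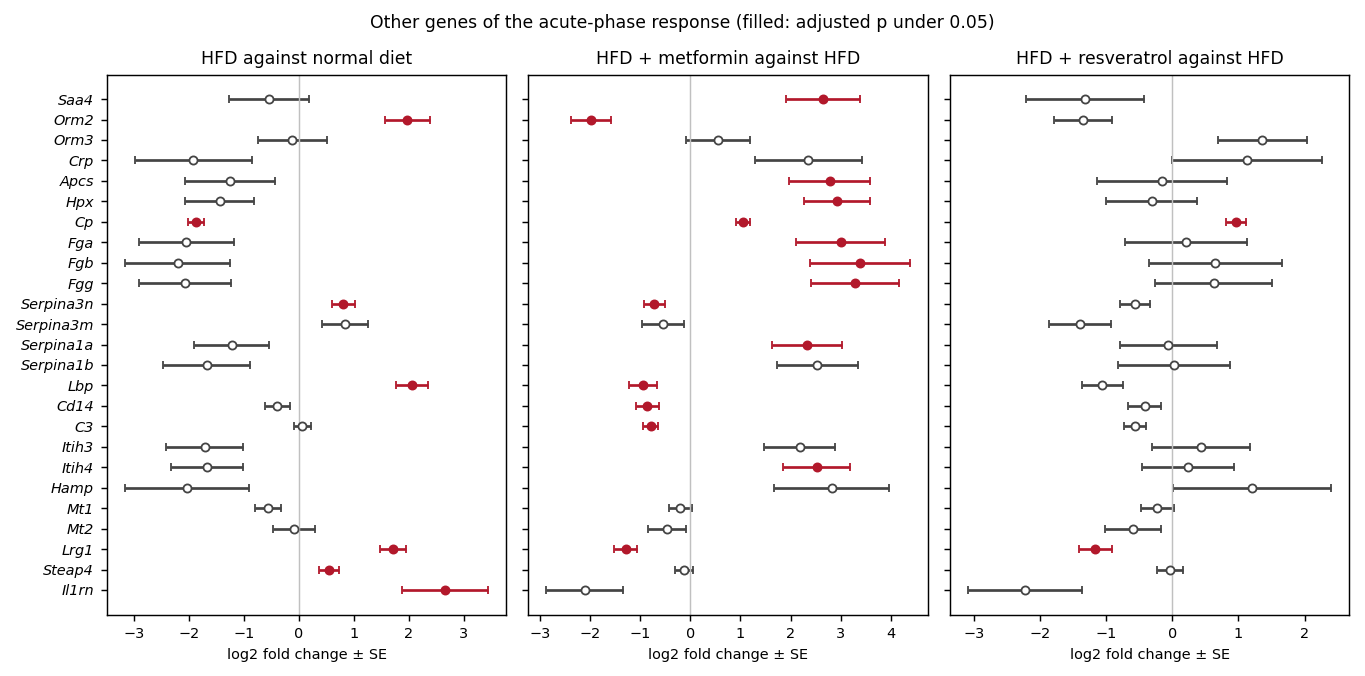
Log2 fold change (horizontal axes, points) with SE (bars) of 25 other acute-phase genes in 3 comparisons, filled where the edgeR adjusted p is under 0.05. Lrg1, Lbp and Orm2 are above 0 in HFD against normal diet and below 0 with either drug against HFD, while the fibrinogen genes Fga, Fgb and Fgg are higher with metformin.

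Among 16 cytokine and receptor genes tested, 3 rose in HFD against normal diet (list median -0.10), and the same 3 fell with metformin (median -0.14) and with resveratrol (median -0.07) against HFD. Of all genes, 13.8% rose in HFD against normal diet, and 7.84% fell with metformin and 3.09% with resveratrol. Tnf averaged 1.83 ± 0.56 CPM in HFD and 0.399 ± 0.218 CPM on a normal diet (2.15, SE 0.48, edgeR adjusted p = 0.00707). It averaged 0.540 ± 0.242 CPM with metformin (n = 4) and 0.356 ± 0.138 CPM with resveratrol (n = 3), against 1.83 CPM in HFD, and fell by edgeR (-1.75 and -2.33, adjusted p 0.0325 and 0.0372). The other genes were the TNF receptor Tnfrsf1b (0.98 in HFD against normal diet, -1.33 with metformin and -1.15 with resveratrol against HFD) and the interferon-gamma receptor chain Ifngr2 (0.84, -0.71 and -0.61). Il1b was at or under 0.981 CPM on average in all groups and did not pass. The macrophage sums were 773 to 1073 CPM with metformin, 782 to 983 CPM with resveratrol, 1100 to 4052 CPM in HFD and 804 to 1513 CPM on a normal diet, moving with the genes called here; their part was not tested.

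Of 19 transcription factors and feedback regulators, 3 rose and 4 fell in HFD against normal diet (median 0.07), 4 fell with metformin against HFD (median -0.21) and 1 fell with resveratrol against HFD (median -0.02). The shares of all genes were 13.8% higher and 9.34% lower in HFD, and 7.84% and 3.09% lower with metformin and resveratrol. Atf3, a stress-induced factor, averaged 9.98 ± 4.20 CPM with metformin, 11.4 ± 4.16 CPM with resveratrol, 87.9 ± 48.3 CPM in HFD and 14.2 ± 6.20 CPM on a normal diet (SD, n = 4, 3, 4 and 4), and was called in all 3 comparisons (log2 differences -3.14, -2.95 and 2.63). The macrophage sums just given were also highest in HFD, and their part in Atf3 was not tested. Cebpd, a C/EBP factor of the acute-phase response, fell by 1.49 (SE 0.25) in HFD against normal diet. Stat3, the main IL-6 effector, was among those that fell, and Socs3, its feedback inhibitor, did not pass (0.17, adjusted p = 0.598). With metformin against HFD, the NF-kB inhibitor Tnfaip3 fell by 0.95 (SE 0.23) and Nfkb2 by 0.63 (SE 0.12).

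Among 21 receptors, carriers and partners of the members, 4 rose and 2 fell in HFD against normal diet (median 0.25), 1 rose and 7 fell with metformin (median -0.25), and 1 rose and 1 fell with resveratrol (median -0.09). Of all genes, 13.8% rose and 9.34% fell in HFD, 6.09% rose and 7.84% fell with metformin, and 1.09% rose and 3.09% fell with resveratrol. Mad2l1, the mitotic checkpoint protein that FAT10 binds, averaged 10.4 ± 3.55 CPM in HFD and 4.52 ± 1.19 CPM on a normal diet (SD, n = 4 each; 1.20, SE 0.31, edgeR adjusted p = 0.0134). Hmox1, which degrades the haem that haptoglobin and haemopexin clear, rose by 1.07 (SE 0.31) in HFD against normal diet and fell by 1.34 (SE 0.31) with metformin against HFD. Mmp9, the protease that lipocalin-2 binds, fell by 1.84 (SE 0.46) in HFD against normal diet. C1qb, a chain of the Ptx3 partner C1q, fell by 1.43 (SE 0.25) with metformin and by 1.16 (SE 0.27) with resveratrol against HFD, and C1qc fell by 1.05 (SE 0.25) with metformin. Macrophages make C1q and express Hmox1, and their marker sums of 773 to 1073 CPM with metformin, 782 to 983 CPM with resveratrol, 1100 to 4052 CPM in HFD and 804 to 1513 CPM on a normal diet moved with these genes; their part was not tested. The 1 gene that rose with resveratrol, the Ptx3-bound growth factor Fgf2 (2.80, SE 0.73), averaged 37.9 ± 49.4 CPM, with a spread above its mean.

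Of 10 immunoproteasome and MHC class I genes that interferon induces together with Ubd, 5 rose in HFD against normal diet (median 0.38), where 13.8% of all genes rose. Psmb10, an immunoproteasome subunit, averaged 40.0 ± 2.98 CPM in HFD and 19.8 ± 0.665 CPM on a normal diet (SD, n = 4 each; 1.02, SE 0.09, edgeR adjusted p = 8.6e-05). Tapbp rose by 0.74 (SE 0.12) and Psme2 by 0.53 (SE 0.14). With metformin against HFD 3 of the 10 fell (median -0.33), where 7.84% of all genes fell, namely Psmb10 by 0.71 (SE 0.09), Tapbp by 0.63 (SE 0.12) and Psmb8 by 0.50 (SE 0.13). With resveratrol Psmb10 alone fell, by 0.75 (SE 0.10, list median -0.15), where 3.09% of all genes fell. The limit given above for calls in resveratrol against HFD applies to this list too.

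Over the 15 libraries, which share groups and marker levels as described, the genes most like each member in log2 CPM were named with no test, among 13837 genes. For Saa3 they were Ostf1, Tmem189 and Actr2 (Pearson r 0.97 each), and for Hp Arpc5, Tmem165 and Pltp (r 0.97, 0.97 and 0.96). For Ubd they were Slc39a11, Mrc2 and a gene given in the file as 9-Sep (r 0.98, 0.97 and 0.97). For Lcn2 they were Ccdc39, Dnah12 and Fndc7 (r 0.98 each), of which Ccdc39 and Dnah12 are genes of motile cilia and Ccdc39 is on the marker list. Orm1 was most like Echdc1, Timm13 and Taldo1 (r 0.95, 0.95 and 0.94), and Ptx3 like Dazap2, Spp1 and Dennd1b (r 0.88, 0.86 and 0.84). Saa1 was most like Arg1, Hpx and Mfsd4b4 (r 0.83, 0.82 and 0.80), and Arg1 and Hpx are genes of high level in liver. Among the members, r was 0.91 between Saa3 and Ubd, 0.90 between Saa3 and Hp and 0.89 between Hp and Ubd, and -0.31 between Saa3 and Lcn2. Saa3 and Ubd were both chosen for their level on HFD in these libraries. Nothing is therefore read from any r that involves either of them, be it with each other, with Hp or with the genes named as most like them.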

How the data were processed

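Total RNA of epididymal fat was sequenced in 16 libraries of 4 groups. Per the file headers, the deposited tables hold whole-number counts per mRNA and per lncRNA transcript, with FPKM as normalised by the authors. Tools named in the submitters' processing notes are fastp and HISAT2, and the build is GRCm38; how reads were counted, with which annotation and strand setting, is not given in the sources used here. The deposited FPKM values were used only to check that each count column belongs to its header: implied and summed totals differed by at most 0.0418% for own columns and by at least 0.489% for others. A further 18 per-sample columns were not used. Records broken over lines (5) were rejoined, and counts of 91879 transcripts were summed by gene identifier.

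The 15 libraries were fitted together by edgeR's robust quasi-likelihood method (edgeR 4.0.16, R 4.3.3), group being the only factor. Low counts were first removed with filterByExpr, which kept 17535 genes, and TMM factors were computed. Tests are two-sided, p-values are Benjamini-Hochberg adjusted over all genes tested, and 0.05 is the threshold. TPM were computed from counts and transcript lengths. DESeq2 1.42.0, other library sets, scalings and filters, and leaving out each library, were the alternatives. The procedure was tested on simulated data. No 2 libraries of a group were alike within sampling noise, so none was merged.

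The members and all lists were chosen with earlier results of these data known. Genes named are the members, the 3 called genes with the largest log2 difference per list and comparison, and the 3 genes most like each member (mean log2 CPM of at least 1), except that 1 gene of these is not reported here; the other called genes named, and Il1b, Stat3 and Socs3, were picked for their roles after their values were seen. Promoters come from RefSeq (GRCm38.p6), which was matched for 6 of the 8 members; Hp and Orm1 have none here.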

Additional observations from a re-analysis of the deposited data

Results flagged for a closer look

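In 24 sets of levels (8 members in the metformin, HFD and normal diet groups of 4 libraries), 4 had a library whose gap to its nearest neighbour was a large part of the whole range. The rule is meant to flag about 1 in 20 by chance. That rate does not hold for sets that share libraries or hold mostly zero counts, so no excess is read from the 4. Normal diet 2 had Lcn2 at 88.8 CPM, against 2.17 to 5.31 CPM in the other normal diet libraries, and its ciliated epithelium genes summed to 918 CPM. Metformin 2 had Orm1 at 22.0 CPM, against 63.9 to 71.1 CPM in the other metformin libraries, and it had the highest ciliated epithelium sum, 1151 CPM, and the lowest adipocyte sum, 14710 CPM. The same held for Saa2 in metformin 4 (0.203 CPM) and in HFD 3 (0.104 CPM), in both cases because the other 3 libraries of the group had no count; with 4 and 2 counts these values are near the limit of detection.

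In the lncRNA table, which the comparisons did not use, MSTRG.25139.1 over Ubd reached 2.05 CPM in HFD 3, above its highest normal diet level of 0.111 CPM. It was at 0 in the 4 metformin libraries and at 0.233 CPM or less with resveratrol.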

How the results depend on the processing

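Hp kept its direction in HFD against normal diet and in either drug against HFD under every alternative run. Saa3 and Ubd did so too, but both were chosen with these libraries, so nothing is read from this. Of 938 alternative values of members, 869 kept direction and call, 16 lost a call, 8 gained one, 3 moved and 42 changed sign, all 42 in Lcn2, Hp, Orm1 or Ptx3 differences that had not passed. The 938 include Saa3 and Ubd values, which had no call to keep or lose wherever these genes were not tested. No paired analysis was possible because replicate numbers come from accession order and 2 columns carry none.

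Genes called were 4050 in HFD against normal diet, 2442 in metformin against HFD, 732 in resveratrol against HFD, 2 in metformin against resveratrol, 299 in metformin against normal diet and 26 in resveratrol against normal diet. In that order they were 1531, 179, 395, 0, 1 and 0 with all 16 libraries (1263, 1827 and 1844 genes at an unadjusted p under 0.05 in the last 3). From the second comparison on, they were 10, 14, 0, 146 and 40 without the 4 libraries over 500 CPM of ciliated epithelium genes, and 1142, 1, 0, 28 and 0 with only the 2 groups fitted. DESeq2 gave 4388, 2141, 40, 1131 and 417, and no filter gave 1541 in metformin against HFD, 351 in resveratrol against HFD, 0 in metformin against resveratrol and 15 in resveratrol against normal diet. Without the libraries matching no title, 1855, 131 and 8 were called in resveratrol against HFD and in metformin and resveratrol against normal diet. A limit of 200 CPM, chosen after the data were seen, gave 18 and 17 in metformin and resveratrol against HFD and 33 and 41 against normal diet. Leaving out 1 library gave 2722 to 4979, 469 to 3710, 1 to 2066, 0 to 3, 91 to 423 and 6 to 120. In resveratrol against HFD, 1 or 2 were called without resveratrol 1, 2 or 3 or without HFD 1, 2 or 3.

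Members called, with Saa1 counted, were 1, 2 and 0 in the first 3 comparisons. With all 16 libraries they were 0 and 0 in the first 2, and DESeq2 gave 2 in HFD against normal diet and 1 in resveratrol against HFD. In metformin against HFD they were 0 under either ciliated limit and 1 without the unmatched libraries, with only 2 groups and with no filter; in resveratrol against HFD they were 1 without the unmatched libraries. Leaving out 1 library gave 1 to 2, 0 to 3 and 0 to 1.

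Under the 500 and 200 CPM limits, Lcn2 turned to 0.32 and 0.32 in HFD against normal diet, to -0.90 and -0.90 in resveratrol against HFD and to -0.59 and -0.58 in resveratrol against normal diet; under the 200 CPM limit alone it turned to -1.16, -0.26 and -0.84 in metformin against HFD, resveratrol and normal diet. Its range with 1 library left out was -2.98 to 0.32, -0.91 to 3.17 and -3.47 to 2.94 in HFD against normal diet and in resveratrol against HFD and normal diet. In metformin against resveratrol, all 16 libraries turned Hp to 0.11, Orm1 to 0.22 and Ptx3 to 0.39, and the 200 CPM limit turned Orm1 to 0.012; Ptx3, at -0.00 as reported, also came to 0.082, 0.010, 0.0067, 0.014 and 0.0018 under the 500 CPM limit, with 2 groups, with RLE factors, with DESeq2 and with no filter. Orm1 ranged from -0.34 to 0.093 and Ptx3 from -0.17 to 0.16 with 1 library left out. Hp against normal diet turned to -0.14, -0.038 and -0.15 with metformin under the 500 and 200 CPM limits and without the unmatched libraries, ranging from -0.15 to 0.21, and to -0.055 with resveratrol and all 16 libraries. Ptx3 against normal diet ranged from -0.17 to 0.20 with metformin and from -0.18 to 0.20 with resveratrol. The causes were not tested.

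Few libraries and 2 columns placed by group alone limit these comparisons. Depth limits Saa1 and Saa2, which had 80 and 17 counts in all.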

Other observations

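The library left out for its Crisp1 level, resveratrol 4, had Lcn2 at 40.8 CPM with a ciliated epithelium sum of 85.1 CPM, unlike the 5 Lcn2-high libraries described above. Its epididymis principal cell genes summed to 18630 CPM, against at most 296 CPM elsewhere, and its neutrophil list to 268 CPM, against at most 26.1 CPM elsewhere. Which genes of the neutrophil list made up that sum in resveratrol 4 was not examined. Hp was at 72.4 CPM, Orm1 at 2.81 CPM, Ubd at 0.216 CPM, Saa3 at 0.288 CPM and Ptx3 at 0.0721 CPM there, each below the other 15 libraries, and its adipocyte sum was 906 CPM. Saa1 was at 0.577 CPM (8 counts) there, within the metformin range, with a hepatocyte sum without Cyp2e1 of 423 CPM. Gene levels compared in this paragraph are unscaled CPM for resveratrol 4 and TMM-scaled CPM for the other 15 libraries.

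A NONCODE transcript that overlaps Ptx3 on chromosome 3 (66220288 to 66221418), NONMMUT043381.2, had 183 counts in all. It was at 0.197, 0.446, 0.146 and 0.705 CPM in HFD 1, 2, 3 and unmatched, against 0.524, 0.554, 0.982 and 1.26 CPM in normal diet 1 to 4. With metformin it was at 0.567 to 0.863 CPM and with resveratrol at 0.875 to 1.31 CPM, against 0.146 to 0.705 CPM in HFD. In HFD 1 to 3 it was thus below every other library of the 15, while Ptx3 itself was at 2.36 to 3.19 CPM there. It lies within an unspliced transcript of Ptx3 (66220245 to 66221430). Since the strand setting of the counting is not given, its reads and those of Ptx3 cannot be told apart. These values were picked after they were seen and were not tested.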
